A study of Mus musculus with 6 samples.

Results

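Hedgehog signalling was examined through 9 genes in mouse hair follicle bulbs at postnatal day 9: the ligand Shh, the receptor Ptch1, the co-receptors Gas1 and Boc, the transducer Smo, the transcription factors Gli1, Gli2 and Gli3, and the antagonist Hhip. They were taken by name, as every probe set whose platform annotation gives one of these symbols alone, which made 9 of 18193 named genes and 24 of the 45037 non-control probe sets on the array. Of these, 18 lay in the brighter 60% of probe sets that were tested, with at least 1 for each of the 9 genes.

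Total RNA was hybridised to 6 one-colour oligonucleotide arrays, 2 for each of 3 groups. The emN1 bulbs were from an area in which deletion took place in the embryo, and they have no functional Notch1, a receptor that controls cell fate in the follicle. The anN1 bulbs were from an area in which deletion took place in anagen, the growth phase of the hair cycle, and Notch1 was still functional in them. The last group was wild-type bulbs, and the study used anN1 and wild-type bulbs together as its 4 controls. The sample titles call the 2 arrays of each group biological replicates. The sources used here do not give the driver of the deletion, the strain or the number of animals behind an array. The p-values therefore measure the spread between these arrays, which may be partly technical. The arrays were run as set 1 (emN1 replicate 1 and anN1 replicate 1) and set 2 (the other 4).

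The pathway works by relief of inhibition. In the absence of ligand, Ptch1 keeps Smo inactive and Gli3 is processed into a repressor. When Shh binds Ptch1, with Gas1, Boc or the related Cdon as co-receptors, Smo is released and the Gli proteins act as activators, Gli2 first among them. Gli1, Ptch1 and Hhip are themselves transcribed in response, so that their RNA is widely read as the output of the pathway. In the growing follicle Shh is made by a group of matrix keratinocytes at the base of the bulb and acts on neighbouring epithelium and on the dermal papilla.

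In emN1 bulbs the ligand, 1 co-receptor and 1 transcription factor of the pathway passed the test against controls, and the usual output genes did not. Gas1 rose 4.03-fold and Shh 1.33-fold, Gli3 fell to 0.579 of its control level, and the other 6 genes did not pass. Of the 18 tested probe sets 2 were higher and 1 lower by limma (Benjamini-Hochberg adjusted p at most 0.05 over 27022 probe sets), against 2.41% higher and 1.37% lower among all probe sets tested. An unadjusted limma p under 0.05 was found for 8 of the 18, several of them probe sets of the same gene, beside 16.6% of all probe sets. The median log2 difference of the 18 was 0.35, and that of all probe sets was -0.01. Both emN1 arrays lay above all 4 controls in 7 of the 18 and below all 4 in 1, where the shares over all probe sets were 9.99% and 9.33%.

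**Figure D1:**
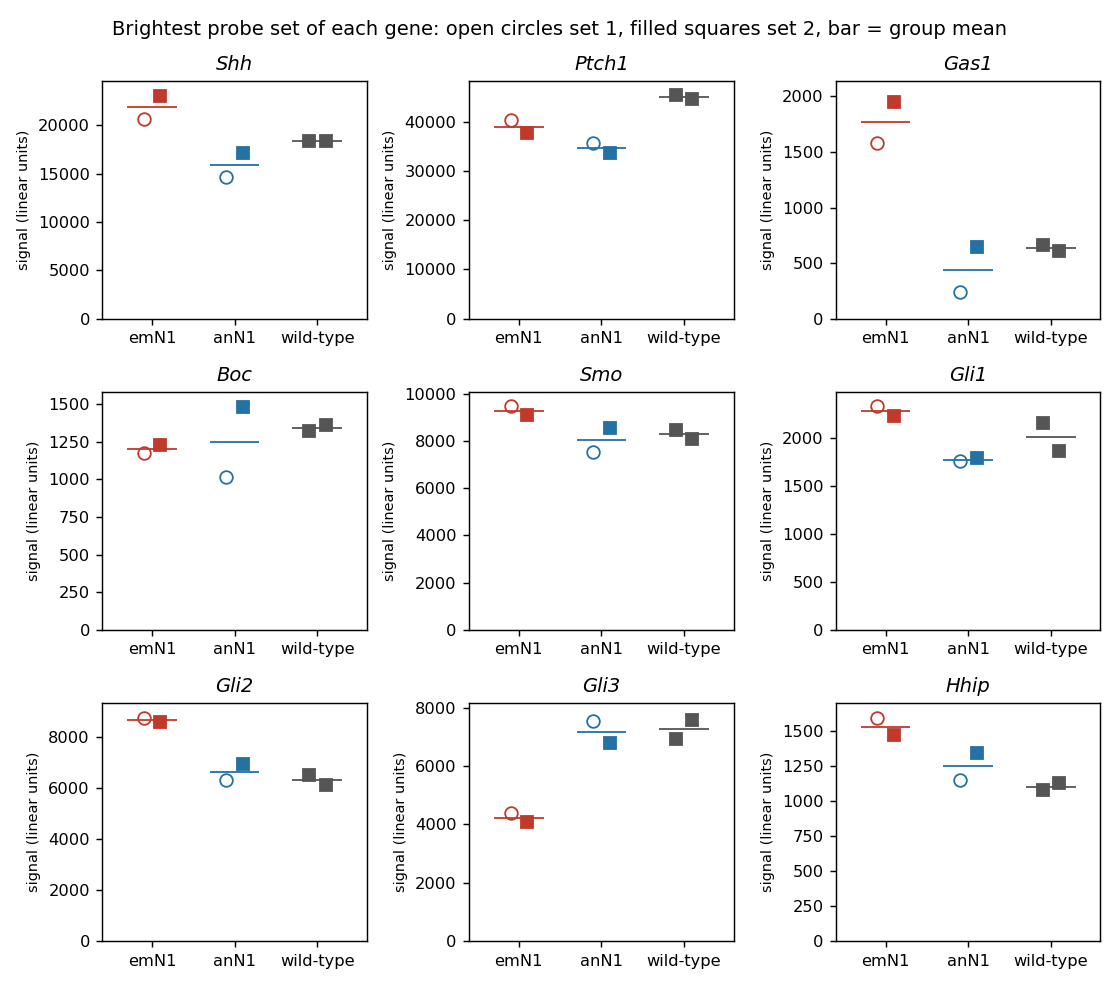
Signal (linear units, y axis from 0) of the brightest tested probe set of each gene in emN1, anN1 and wild-type bulbs; open circles are set 1, filled squares set 2, and bars are group means (n = 2). Gas1 in emN1 stands at 1585 and 1951 against 237 to 664 in the controls, Gli3 at 4389 and 4070 against 6781 to 7585, while the Ptch1 values of emN1 lie between those of anN1 and wild-type.

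These calls rest on few arrays. Without the array set term, or without the intensity trend in the variance, 0 of the 18 passed; those fits called 286 and 0 of all probe sets and gave 2783 and 4044 an unadjusted p under 0.05. In set 2 alone 0 passed as well, and the count was also 0 without emN1 replicate 1, emN1 replicate 2 or anN1 replicate 1. Set 1 holds 1 emN1 and 1 anN1 array, so that with the set term omitting either leaves the difference as it is in set 2. Set 1 had higher 3' to 5' signal ratios of actin, a measure of RNA integrity, at 4.59 in emN1 and 5.64 in anN1, against 2.39 to 2.71 in set 2. The same ratio of Gapdh did not separate the sets, at 4.79 in emN1 and 6.96 in anN1 of set 1, against 4.64 to 5.45 in set 2. The part of either in the values below was not tested. Notch1 itself gave 6498 and 6292 signal units in emN1 arrays, 15077 and 12527 in anN1 arrays and 23750 and 34070 in wild-type arrays, and both emN1 arrays were the lowest. Its log2 difference from controls was -1.55 (SE 0.35, limma adjusted p = 0.0491), a call lost without the set term (0.0935) and without replicate 1 of emN1 (0.212), of anN1 (0.207) or of wild-type (0.0996), or replicate 2 of emN1 (0.423). The dimmer Notch1 probe set gave 821 and 1561 in emN1, 1581 and 2789 in anN1, and 2833 and 3720 in wild-type, a log2 difference of -0.96 (SE 0.17, limma adjusted p = 0.0211). It also lost its call without the set term (0.246), without replicate 1 of emN1 (0.141) or of anN1 (0.146), or without replicate 2 of emN1 (0.221). Which part of the gene was deleted, and whether these probes lie in it, is not given in the sources at hand.

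Gas1 and Gli3 passed in every comparison that included emN1, and the bases upstream of both are shown for the letters they hold. The RefSeq windows used (GRCm38.p6) run from 250 bases before to 50 after a gene's start and were held for 6 of the 9 genes, with none for Shh, Gli1 and Boc. Printed 5' to 3' on the gene's strand are the 250 bases before the start, for Gas1 chr13:60177536-60177785 on the minus strand and for Gli3 chr13:15463473-15463722 on the plus strand, with capitals for a match to a CCAAT box (CCAAT) or a GC box (GGGCGG) on either strand.
Gas1: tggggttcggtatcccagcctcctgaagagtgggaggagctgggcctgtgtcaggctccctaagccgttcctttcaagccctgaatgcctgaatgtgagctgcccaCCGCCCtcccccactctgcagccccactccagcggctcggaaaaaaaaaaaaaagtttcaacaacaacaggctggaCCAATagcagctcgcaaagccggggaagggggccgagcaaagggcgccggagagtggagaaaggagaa
Gli3: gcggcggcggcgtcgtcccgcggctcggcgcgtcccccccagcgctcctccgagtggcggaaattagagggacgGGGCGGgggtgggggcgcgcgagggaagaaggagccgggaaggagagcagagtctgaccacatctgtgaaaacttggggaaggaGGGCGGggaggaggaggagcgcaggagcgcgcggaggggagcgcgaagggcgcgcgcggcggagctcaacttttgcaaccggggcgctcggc

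The Gas1 window held 1 CCAAT box, whose first base is at position -68 where -1 is the base before the start, and 1 GC box on the opposite strand at -144. The Gli3 window held 2 GC boxes, at -176 and -92, and no CCAAT box. Over all 32851 windows of the same length 37.4% held a CCAAT box and 35.7% a GC box. Of the 6 member windows 1 held a CCAAT box and 5 a GC box, among them those of Ptch1, Gli2 and Hhip, which did not pass. G and C made up 58.8% of the 250 bases for Gas1 and 72.8% for Gli3, against a median of 52.4% over all windows. The consensus of the Gli proteins (GACCACCCA, either strand) was in 0 of the 6 member windows and in 0.253% of all windows. The core of RBPJ, the DNA-binding partner of Notch (TGGGAA, either strand), was in 0 of the 6 and in 25.6% of all windows. The motifs other than the Gli consensus were chosen after the values were seen, and no match says only that these letters are absent from these windows.

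The ligand Shh was bright on every array. Its brighter probe set, 1436869_at, gave 20685 and 22982 signal units in emN1, 14679 and 17080 in anN1, and 18376 and 18344 in wild-type. Both emN1 arrays were above all 4 controls, and the anN1 arrays were the lowest. Shh rose in emN1 by 0.41 log2 units (SE 0.09, 95% interval 0.21 to 0.62; n = 2 against 4), with a limma adjusted p of 0.0445. The call was lost without any single array, emN1, anN1 or wild-type (adjusted p from 0.0566 to 0.248; log2 differences of 0.36 to 0.49), and without the filter on dim probe sets (adjusted p = 0.071). Within the sets the difference from anN1 was 0.49 in set 1 and 0.43 in set 2, and from wild-type in set 2 it was 0.32. The other Shh probe set, 1427571_at, was too dim to be tested: 5 of its 6 values were below 112, the 95th percentile of undetected bacterial controls, and the sixth was 205, in emN1 replicate 2.

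Gas1, a membrane-anchored protein that binds Shh and helps cells respond to it, had the largest difference of the 18 probe sets; its upstream bases are those printed first above. Probe set 1416855_at gave 1585 and 1951 in emN1, 237 and 642 in anN1, with 664 and 612 in wild-type. Every emN1 value was more than double every control value, and anN1 replicate 1 was the lowest of the controls. Gas1 rose in emN1 by 2.01 log2 units (SE 0.27, 95% interval 1.40 to 2.63), with a limma adjusted p of 0.00672. The difference from anN1 was 2.65 in set 1 and 1.58 in set 2, and from wild-type in set 2 it was 1.59. Omitting emN1 replicate 1 ended the call (log2 1.58, adjusted p = 0.0704), as did omitting emN1 replicate 2 (log2 2.65, adjusted p = 0.0813) or anN1 replicate 1 (log2 1.58, adjusted p = 0.0505). Without the set term the difference was 1.78 log2 units (adjusted p = 0.109).

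The second tested Gas1 probe set, 1448494_at, gave 487 and 996 in emN1, 174 and 327 in anN1, and 419 and 616 in wild-type. Here the lower emN1 value fell below wild-type replicate 2. The difference was 1.25 log2 units (SE 0.31) and missed the threshold (limma adjusted p = 0.075), though it passed without wild-type replicate 2 (log2 1.39, adjusted p = 0.0242). It did not pass without the set term (log2 0.96, limma adjusted p = 0.599) or without the filter (0.119). The difference was 1.15 without emN1 replicate 1 or anN1 replicate 1, and 1.40 without emN1 replicate 2. The other probe set, 1456322_at, was not tested, with 2 of 6 values above the background limit, 231 in emN1 replicate 1 and 145 in wild-type replicate 2.

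Boc, a co-receptor of the immunoglobulin superfamily, did not pass the test. Its brighter probe set, 1427516_a_at, gave 1174 and 1228 in emN1, 1014 and 1482 in anN1, and 1323 and 1362 in wild-type. Thus emN1 lay inside the range of anN1. The log2 difference from controls was -0.02 (95% interval -0.43 to 0.39; limma adjusted p = 0.977), and that of the second probe set was -0.10 (95% interval -0.54 to 0.34). The third, 1427517_at, was under the background limit on all 6 arrays.

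Cdon, the third co-receptor and a relative of Boc, is given beside them from the list of genes at the membrane. It gave 1267 and 1916 in emN1, 900 and 553 in anN1, and 615 and 657 in wild-type. Both emN1 values were above all controls. The difference of 1.17 log2 units (SE 0.27) missed the threshold (limma adjusted p = 0.0576; 0.0482 among the brighter 40% of probe sets). It was 0.49 without emN1 replicate 2 (adjusted p = 0.545) and 1.63 without emN1 replicate 1 (0.0603).

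Ptch1, receptor and target in one, was nearly the same in emN1 and in the controls as 1 group, while the 2 kinds of control lay on either side of it. Probe set 1428853_at gave 40374 and 37708 in emN1, 35754 and 33734 in anN1, and 45417 and 44734 in wild-type. Both emN1 arrays lay between the anN1 arrays below and the wild-type arrays above, with no overlap. The emN1 to control ratio was 1.00, with a 95% interval of the log2 difference of -0.32 to 0.32. Apart, emN1 differed from anN1 by 0.17 log2 units (SE 0.09) and from wild-type by -0.25 (SE 0.10), and anN1 differed from wild-type by -0.42 (SE 0.10); none passed (limma adjusted p = 0.484, 0.323 and 0.674). The dimmer probe set 1439663_at differed by 0.12 between emN1 and controls, with 1 wild-type value at 207 and the rest between 510 and 775. Probe set 1450824_at was not tested; only its wild-type values, 222 and 124, were above the background limit.

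Smo, the membrane protein that carries the signal into the cell, gave 9496 and 9088 in emN1, 7528 and 8557 in anN1, and 8483 and 8093 in wild-type with probe set 1427049_s_at. The emN1 arrays were above all controls by a small margin. The log2 difference was 0.20 (95% interval -0.03 to 0.44; limma adjusted p = 0.379). Probe set 1427048_at, designed from the same sequence record, differed by 0.60 (SE 0.18, limma adjusted p = 0.129), with 1.07 from anN1 in set 1 and 0.17 in set 2, where anN1 replicate 1 was low at 2328 and the other controls were between 4978 and 5913. The remaining Smo probe set was under the background limit on all arrays.

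**Figure D2:**
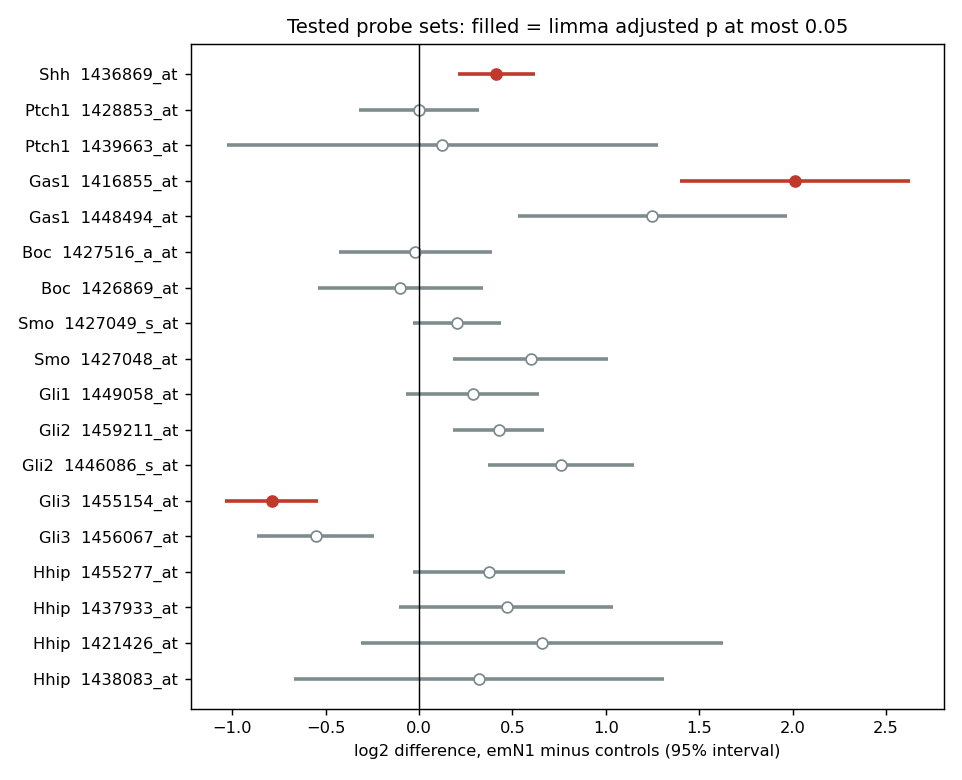
Log2 difference of emN1 minus the 4 controls (x axis) with its 95% interval for the 18 tested probe sets (rows); filled red points passed limma at an adjusted p of at most 0.05. The intervals of Ptch1 and Boc are centred near 0, both Gas1 and both Gli2 probe sets lie above 0 and both Gli3 probe sets below it.

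Gli3, the Gli protein that acts mainly as a repressor, fell in emN1. Probe set 1455154_at gave 4389 and 4070 in emN1, 7531 and 6781 in anN1, and 6931 and 7585 in wild-type. All 4 controls lay close together and well above both emN1 arrays. The decrease was -0.79 log2 units (SE 0.11, 95% interval -1.04 to -0.54), with a limma adjusted p of 0.00778. It was alike in size in both sets, at -0.78 and -0.73 from anN1, and at -0.83 from wild-type. Leaving out any array kept it between -0.81 and -0.76, although the adjusted p was past the threshold no longer on omitting emN1 replicate 1 (0.0704), emN1 replicate 2 (0.134) or anN1 replicate 1 (0.0725), or in the absence of the set term (0.0577).

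The second tested Gli3 probe set, 1456067_at, gave 2098 and 4194 in emN1, 3529 and 5150 in anN1, and 6194 and 5576 in wild-type. Values were lower in set 1 for emN1 and anN1 alike, so the groups overlapped across sets and not within them. The difference was -0.55 log2 units (SE 0.14) and missed the threshold (limma adjusted p = 0.0724), with -0.75 from anN1 in set 1 and -0.30 in set 2. Probe set 1450525_at was not tested, its values between 61.0 and 166.

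Gli2, the main activator among the Gli proteins, was measured by a pair of probe sets from the same sequence record, which are not independent. Probe set 1459211_at gave 8746 and 8589 in emN1, 6313 and 6925 in anN1, and 6511 and 6133 in wild-type. Probe set 1446086_s_at gave 4027 and 4155 in emN1, 2009 and 2791 in anN1, and 3168 and 2315 in wild-type. Both emN1 arrays were above all controls with each. The log2 differences were 0.43 (95% interval 0.18 to 0.67) and 0.76 (95% interval 0.37 to 1.15), and both missed the threshold by little (limma adjusted p = 0.0725 and 0.0515). The second passed with quantile normalization (limma adjusted p = 0.0451), in the brighter 40% (0.0443) and with signals raised to the background limit (0.0416). An addend to the signal 4 times as large (0.0474) and omission of wild-type replicate 1 (0.0465) also let it pass. It did not pass without the set term (0.252), without the trend (0.184), without the filter (0.0611) or with an addend of 1 (0.0545). Its difference was 0.60 without emN1 replicate 1 or anN1 replicate 1, and 1.00 without emN1 replicate 2. The first probe set passed in no alternative.

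Gli1, the Gli protein made in response to the pathway, gave 2337 and 2238 in emN1, 1760 and 1792 in anN1, and 2158 and 1870 in wild-type. Both emN1 arrays were highest, with wild-type replicate 1 close below them. The log2 difference was 0.29 (95% interval -0.07 to 0.64; limma adjusted p = 0.413). It was 0.41 and 0.32 from anN1 in the 2 sets and 0.15 from wild-type.

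Hhip, which binds Shh at the cell surface and withholds it from Ptch1, gave 1590 and 1468 in emN1, 1149 and 1344 in anN1, and 1076 and 1124 in wild-type with probe set 1455277_at. The emN1 arrays were above all controls. The difference of 0.37 log2 units (95% interval -0.03 to 0.78) did not pass (limma adjusted p = 0.348). The other 3 Hhip probe sets were dimmer, with values from 114 to 698 and differences of 0.32 to 0.66 that did not pass either. Thus the RNA of the target genes Ptch1, Gli1 and Hhip gave fold differences of 1.00, 1.22 and 1.30 with their brightest probe sets, none past the threshold; the upper ends of their intervals were 0.32, 0.64 and 0.78 log2 units.

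Set against each kind of control alone, Gas1 and Gli3 passed both times. Between emN1 and anN1, 1 member probe set was higher and 1 lower (shares over all probe sets 1.35% and 0.662%), with 2.12 log2 units (SE 0.31, limma adjusted p = 0.0229) for Gas1 and -0.76 (SE 0.12, adjusted p = 0.0325) for Gli3. Between emN1 and wild-type it was again 1 higher and 1 lower (shares 1.53% and 0.629%), with 1.86 (SE 0.35, limma adjusted p = 0.048) for Gas1 and -0.84 (SE 0.14, adjusted p = 0.0306) for Gli3. These comparisons share the emN1 arrays, the set term and the estimate of the spread, and are not independent of each other. As wild-type arrays lie in set 2 alone, the comparison with wild-type also draws on the anN1 arrays through the set term. Within set 2 the Gas1 difference from wild-type was 1.59. Both counts were 0 without the set term, without the trend, in set 2 alone, and without emN1 replicate 1, emN1 replicate 2, anN1 replicate 1 or anN1 replicate 2. The emN1 minus anN1 count was 5 without either wild-type replicate 1 or 2. Between emN1 and wild-type Gas1 was also not past the threshold with an addend of 1 or without the filter, where the count was 1. Shh differed by 0.46 log2 units from anN1 and by 0.34 from wild-type and passed in neither (limma adjusted p = 0.0716 and 0.221). Of the 18, 8 had an unadjusted limma p under 0.05 against anN1 and 9 against wild-type, beside 13.4% and 13.2% of all probe sets.

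Between the kinds of control, 0 of the 18 passed by limma, and 0.074% of all probe sets did. Of the 18, 1 had an unadjusted p under 0.05, Ptch1 at 0.00327, as had 3.64% of all probe sets. No limma alternative gave a call either. The Gas1 difference, anN1 minus wild-type, was -0.26 log2 units (SE 0.35) and that of Gli3 was -0.09 (SE 0.14).

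**Figure D3:**
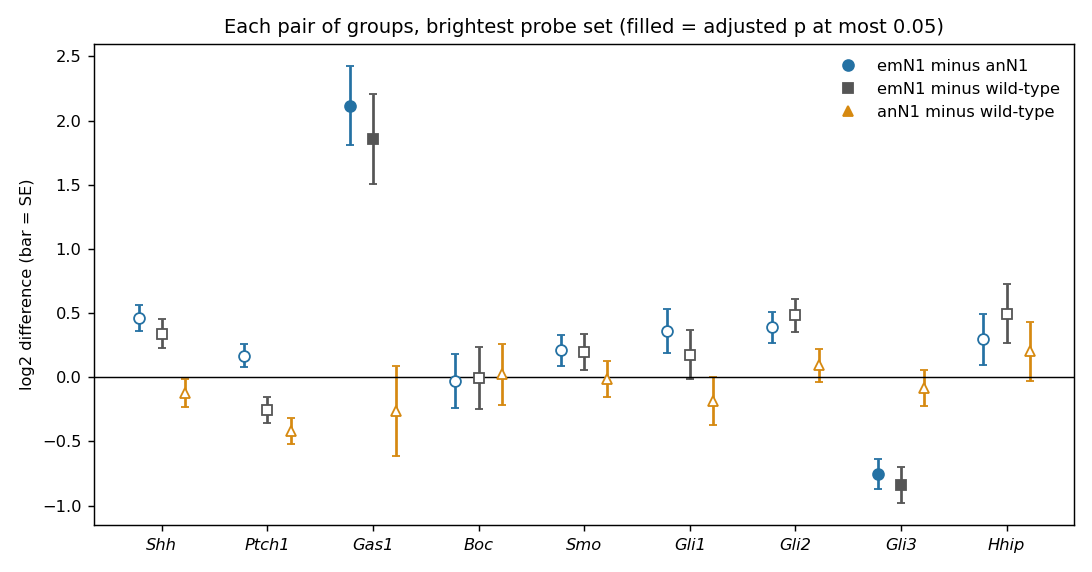
Log2 difference (y axis, bars are SE) of the brightest probe set of each gene for emN1 minus anN1 (blue circles), emN1 minus wild-type (grey squares) and anN1 minus wild-type (orange triangles); filled symbols passed. Gas1 and Gli3 carry the filled symbols in both emN1 comparisons, and Ptch1 has its largest difference, -0.42, between the controls.

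The rest of the pathway was followed through 4 lists of other genes, each gene by its brightest tested probe set; over all 12611 tested genes 3.58% were higher and 1.83% lower in emN1, with a median of -0.02, and 20.7% had an unadjusted p under 0.05. Of 5 measured genes for making and releasing the ligand, 1 fell and 4 did not pass (list median -0.12). An unadjusted limma p under 0.05 was found for 2 of the 5. The gene that fell was Scube2, a secreted protein that helps free lipid-modified Shh from the cell that makes it. It gave 232 and 94.5 in emN1, 707 and 365 in anN1, and 487 and 649 in wild-type, and fell by 1.92 log2 units (SE 0.34, limma adjusted p = 0.0195). One emN1 value was under the background limit, so the size of the decrease is uncertain. Omitting emN1 replicate 1 ended its call (adjusted p = 0.0992), as did omitting emN1 replicate 2 (0.245), replicate 1 of anN1 (0.107) or that of wild-type (0.0521), or the set term (0.119). The other hedgehog ligands Dhh and Ihh were not tested, with highest signals of 140 and 137.

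At the membrane, 0 of 7 measured genes passed by limma (1 with an unadjusted p under 0.05; list median 0.23); besides Cdon the smallest p was that of the glypican Gpc3, a heparan sulphate proteoglycan, at 0.43 log2 units (SE 0.22, limma adjusted p = 0.371). Of 15 genes of transduction and the primary cilium, the organelle in which Smo and the Gli proteins are regulated, 0 passed by limma (4 with an unadjusted p under 0.05, beside 20.7% of all genes; list median -0.11). The smallest p-values there were those of Gsk3b, a kinase that marks Gli proteins for processing, at -0.46 (SE 0.11, limma adjusted p = 0.0565), and of Spop, an adaptor for their degradation, at 0.34 (SE 0.09, limma adjusted p = 0.0776). These are their brightest probe sets; the 6 tested for Gsk3b ranged from -0.46 to 0.49 and the 3 for Spop from 0.34 to 0.88, and none passed.

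Of 11 other genes described as targets of the pathway in some tissue, 3 fell, none rose and 8 did not pass (list median -0.24). In this list 5 had an unadjusted limma p under 0.05, beside 20.7% of all genes. Sfrp1, a secreted Wnt antagonist, gave 695 and 814 in emN1, 1692 and 2296 in anN1, and 2583 and 3016 in wild-type, and fell by 1.50 log2 units (SE 0.18, limma adjusted p = 0.00519), and 2 of its 4 probe sets passed. Ccnd1, the cyclin of G1 progression, gave 5848 and 4287 in emN1, 10218 and 9838 in anN1, and 8269 and 9787 in wild-type, and fell by 0.99 (SE 0.13, limma adjusted p = 0.00579) and each of its 3 probe sets passed. Both calls were lost without emN1 replicate 2 (adjusted p = 0.133 and 0.143), and that of Ccnd1 without the set term (0.0608). Foxm1, a transcription factor of mitosis, fell by 0.77 (SE 0.17, limma adjusted p = 0.0462), with 1 of 3 probe sets past the threshold, and lost its call without any single array other than wild-type replicate 2 (adjusted p from 0.104 to 0.261) and without the set term (0.119). In set 2 alone 2 of the 11 fell. Each of these 3 is controlled by other pathways as well, and the part of any pathway in their decreases was not tested. Of 8 measured cell cycle genes 2 fell and 6 did not pass (median -0.25), where 1.83% of all genes fell. In that list 0 were past the threshold in set 2 alone and 0 without the set term.

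**Figure D4:**
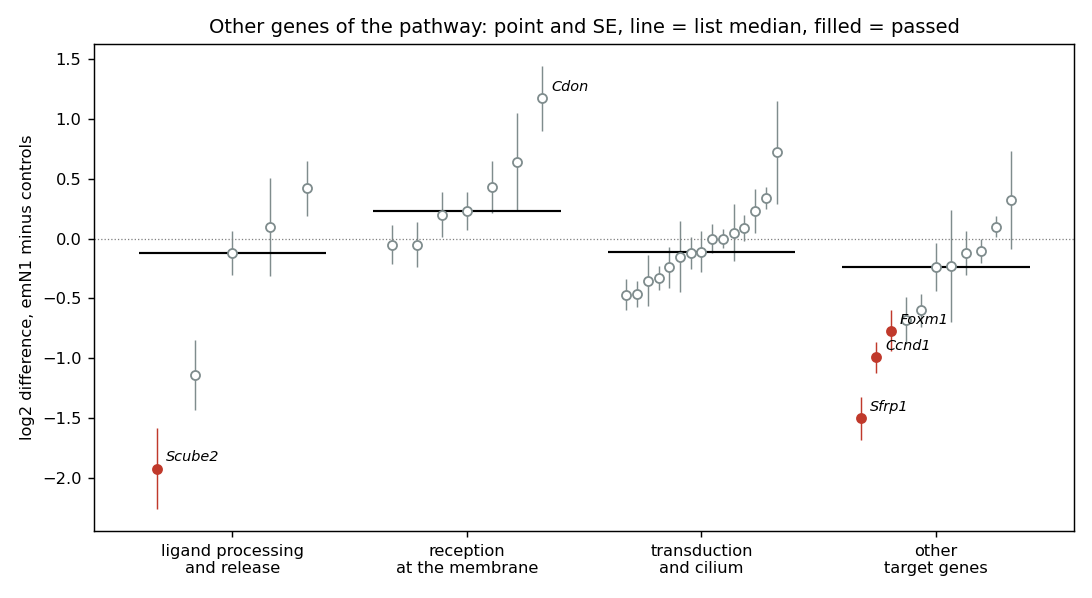
Log2 difference of emN1 minus controls (y axis, bars are SE) for the tested genes of 4 further lists of the pathway (x axis), sorted within each list; black lines are list medians and filled red points passed. The filled points, Scube2, Sfrp1, Ccnd1 and Foxm1, all lie below 0, and Cdon is the highest point at 1.17.

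Bulbs are mixtures of cells, and with bulk RNA a change in the number of cells of a type cannot be told apart from a change of RNA per cell. Gas1 is known from dermal cells, and marker lists of several cell types moved in the same direction. Over all 12611 tested genes 3.58% rose and 1.83% fell, with a median of -0.02. Of 11 dermal fibroblast markers 5 rose and 0 fell (median 0.89). Their summed signal was 108015 to 127997 in emN1, 72859 to 80255 in anN1, and 69674 to 90267 in wild-type. Of 5 measured contractile cell and pericyte markers 4 rose (median 1.32). Their sums were 42529 to 43069 in emN1, 19627 to 23393 in anN1, and 16630 to 17085 in wild-type. Rgs5 was the marker that did not pass (limma adjusted p = 0.303), and Myh11 was not tested, with a highest signal of 227. Of 7 outer root sheath and basal keratinocyte markers 5 rose (median 1.14; sums of 133774 to 149538 in emN1, 74745 to 91187 in anN1, and 85723 to 88321 in wild-type). In all 3 lists both emN1 sums were above every control sum. Of 7 measured immune cell markers 4 rose (median 1.60; sums of 6218 to 7430 in emN1, 1266 to 1688 in anN1, and 1534 to 1607 in wild-type). None of the tested genes of these lists was under the background limit on every array. In set 2 alone the numbers that rose were 1, 3, 2 and 2 in the same order of lists. The part of these cell types in the differences of Gas1, Shh and Gli3 was not tested.

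Markers of the cells best known for making Shh and responding to it gave other counts, where 3.58% of all genes rose and 1.83% fell. Of 8 hair matrix markers 0 passed by limma (median 0.09; sums of 68680 to 70937 in emN1, 62108 to 67226 in anN1, and 66113 to 66471 in wild-type), and 3 of the 8 had an unadjusted p under 0.05, beside 20.7% of all genes. Of 9 measured dermal papilla markers 1 rose and 2 fell (median -0.35; sums of 25900 to 26457 in emN1, 24385 to 30212 in anN1, and 27763 to 28843 in wild-type). In set 2 alone 0 rose and 1 fell. The riser was Vcan, a matrix proteoglycan, at 0.77 (SE 0.17, limma adjusted p = 0.0478), a call lost without any single array. The other of its 2 tested probe sets differed by 1.38 and did not pass. The larger of the decreases was Crabp1, a retinoic acid binding protein, at -1.97 (SE 0.20, limma adjusted p = 0.00308; 0.098 without emN1 replicate 2). Of 7 melanocyte markers 6 fell (median -1.51; sums of 93171 to 111431 in emN1, 255099 to 299053 in anN1, and 206263 to 223430 in wild-type), and 5 did in set 2 alone. In the lists for endothelium (2 measured genes), Schwann cells (1), adipocytes (2), skeletal muscle (2) and epidermal differentiation (3) none passed by limma, with 0, 0, 1, 0 and 2 at an unadjusted p under 0.05.

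**Figure D5:**
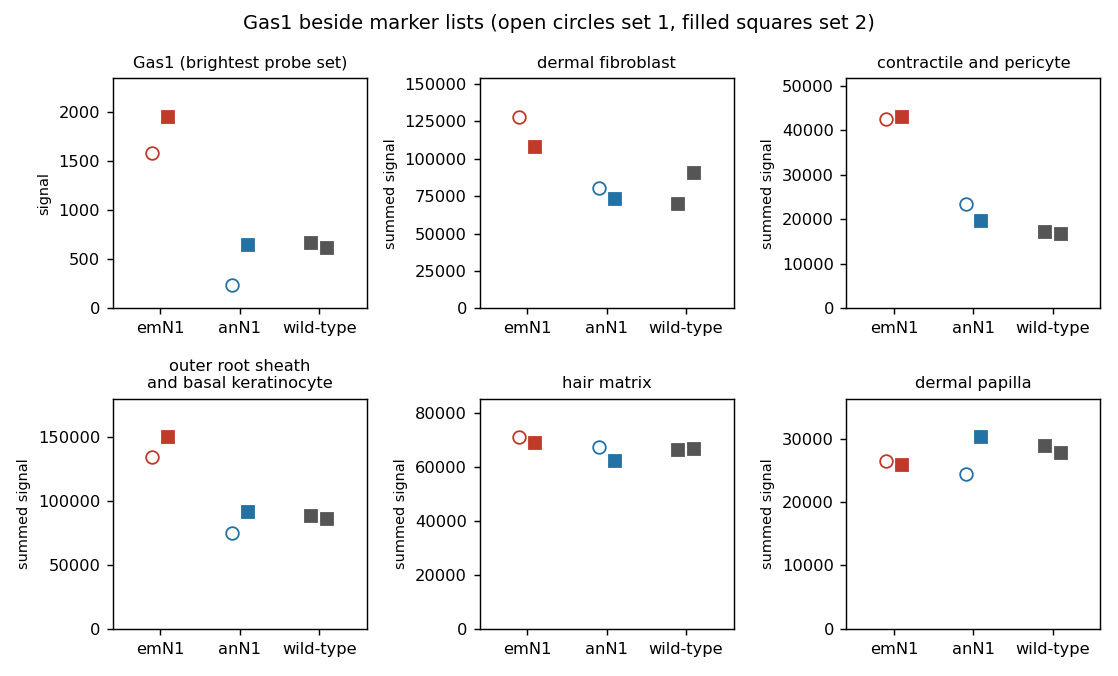
Signal of the brightest Gas1 probe set (first panel) and summed signal of 5 marker lists (other panels), y axes from 0, by group; open circles are set 1 and filled squares set 2. Fibroblast, contractile and pericyte, and outer root sheath sums are higher in both emN1 arrays than in every control, as is Gas1. Hair matrix sums lie between 62108 and 70937 in all groups, and dermal papilla sums overlap. Sums follow the brightest genes of a list and can hide changes of dimmer ones. Examples are Wif1 (10059 to 15348) for dermal papilla and Acta2 (12210 to 30584) for contractile cells and pericytes.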

How the data were processed

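The authors deposited a linear intensity for each probe set, 1 column per array. The submitters' processing notes name MAS5, with version, settings and detection calls not given in the sources used here. Every array had a mean of 1500 between its 2nd and 98th percentiles and was not rescaled. Median signals were 220 to 263. Of 45101 probe sets 64 controls were left out; 34958 had 1 gene symbol, 932 several and 9211 none, and no gene was named from the last 2 kinds. The background limit of 112 is the 95th percentile of 120 values of 20 undetected bacterial controls. The number of arrays limits all precision.

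The scale was log2(signal + 17.8), where 17.8 is the 10th percentile over the arrays, which understates changes of dim genes. The upper 60% by mean log2 signal were tested with limma 3.58.1 in R 4.3.3 (lmFit, eBayes with trend, two-sided, Benjamini-Hochberg over 27022 probe sets, threshold 0.05). One fit set emN1 against 4 controls (3 residual degrees of freedom), another had 3 groups (2), both with array set as a term. A gene is represented by its tested probe set of highest mean log2 signal. The set term pairs emN1 with anN1 by the series' design text; replicate differences of emN1 and anN1 correlated with r = 0.38 across 27022 probe sets, which are not independent. Wild-type numbers mark no set.

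Alternatives were no set term, no trend, other addends (an addend of 1, and 4 times 17.8), other filters, quantile normalization, a background floor and leaving out each array; set 2 alone was added after seeing the data. The members, the 4 pathway and 13 marker lists and the tests were chosen with earlier results of these data known. Named beside the members were Notch1, the genes of each pathway list past the threshold (up to 4) or otherwise the 2 with the smallest p, and, from marker lists, the largest change in each direction, of which Vcan and Crabp1 are printed. Wif1, Acta2, Rgs5, Myh11, H2-Aa and Ptprc are named only to show limits of the marker lists. The fit was also run on simulated data that meet its own assumptions, which cannot show whether these arrays meet them. Figures used matplotlib 3.10.9, and windows of promoters came from RefSeq.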

Additional observations from a re-analysis of the deposited data

Results flagged for a closer look

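In 2 of the 24 member probe sets 1 of the 4 control arrays stood apart from the other three on the log2 scale, by a gap that took up more of the range than Dixon's test allows for 4 values; chance gives about 1 in 20. Both belong to Gas1. With 1416855_at the lowest control was anN1 replicate 1, at 237 against 612 to 664, and the gap was 0.919 of the range. That array is the only control of set 1, and the test takes no account of the set. With 1456322_at, which was too dim to test, the highest control was wild-type replicate 2, at 145 against 30.0 to 40.9, and the gap was 0.833 of the range. These are different arrays. Without anN1 replicate 1 the Gas1 difference was 1.58 log2 units in place of 2.01; with the set term this also takes emN1 replicate 1 out of the difference, and 1.58 is the value in set 2 alone.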

How the results depend on the processing

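The number of tested member probe sets past the threshold was 3 between emN1 and controls, 2 between emN1 and anN1 and 2 between emN1 and wild-type. With no replicate block (no array set term) all were 0, as they were with no intensity trend and in set 2 alone. Leaving out 1 array gave 0 to 3, 0 to 5 and 0 to 3, and the count between anN1 and wild-type was 0 in every setting. With an addend of 1 or no filter the emN1 to wild-type count was 1. The block changed no direction of the brightest Gas1, Gli3, Shh and Gli2 probe sets between emN1 and controls. There were 837 values of member probe sets and other named genes under alternatives. Of these, 703 kept direction and side of the threshold, 95 lost a call, 13 gained one and 26 changed sign. None of the 26 was past the threshold in the main setting. Most of the 837 belong to differences with no call in the main setting, which had none to lose, so 703 does not measure how firm the calls are. Omitting emN1 replicate 1 or anN1 replicate 1 also repeats the emN1 minus controls difference of set 2 alone. Values that changed sign outside the omission of an array were Ptch1 (emN1 minus controls) at 0.05 with quantile normalization, Boc 1426869_at (emN1 minus controls) at 0.02 with no replicate block, Boc (anN1 minus wild-type) at -0.13 with no replicate block, and Smo and Gas1 (anN1 minus wild-type) at 0.05 and 0.01 in set 2 alone. Leaving out 1 array moved the emN1 minus controls value between -0.12 and 0.18 for Ptch1 1428853_at, between -0.59 and 0.60 for Ptch1 1439663_at and between -0.17 and 0.21 for Boc 1427516_a_at. For Boc it moved emN1 minus anN1 between -0.27 and 0.21 and emN1 minus wild-type between -0.13 and 0.35. It moved anN1 minus wild-type between -0.20 and 0.05 for Smo, -0.03 and 0.13 for Gli2, -0.05 and 0.29 for Hhip, -1.07 and 0.01 for Gas1, and -0.33 and 0.14 for Boc. Fits without an array have fewer residual degrees of freedom, and a lone array is assumed to vary like the other groups; other causes were not tested. Over all probe sets 1020, 545 and 584 passed between emN1 and controls, anN1 and wild-type; with no replicate block these were 286, 42 and 215, with no intensity trend 0, 0 and 0 (4044, 3109 and 3003 at an unadjusted p under 0.05), and in set 2 alone 185, 0 and 26. Leaving out 1 array gave 1 to 1092, 0 to 1269 and 0 to 1375. Of the 6 dim member probe sets, 0 passed by limma in the fit without the filter, and 0 had an unadjusted p under 0.05 in any comparison with emN1.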

Other observations

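The genes whose pattern over the 6 arrays was most like that of Shh, by the smallest root mean square difference of log2 values centred on each gene's own mean, were Klf17, Scd1 and Loxl4, at 0.025, 0.04 and 0.041 log2 units, where the Shh values themselves spread by 0.2. Scd1, a fatty acid desaturase, gave 16554 and 18478 in emN1, 11792 and 13938 in anN1, and 13846 and 14128 in wild-type. Klf17 and Loxl4 were dim, at 146 and 169 and at 148 and 177 in emN1. For Gli1, with a spread of 0.16, the nearest were Glud1, Sos1 and Setd6, at 0.029, 0.031 and 0.037 log2 units. Glud1, glutamate dehydrogenase, gave 7943 and 7946 in emN1, 6170 and 6445 in anN1, and 7710 and 6764 in wild-type. These rankings are descriptions over 6 arrays and 12611 genes.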
